A study of Mus musculus with 12 samples.

Results

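The Hippo pathway genes of SVR angiosarcoma tumors were followed across 4 treatments. The set held 10 genes chosen by name among the 54232 genes of the count table, and all 10 passed the filter on low counts that left 12897 genes for testing. They were the coactivators *Yap1* and *Wwtr1* (the gene for TAZ), the TEAD transcription factors *Tead1*, *Tead2*, *Tead3* and *Tead4*, the kinases *Lats1* and *Lats2*, the scaffold gene *Amotl2* and the target gene *Ankrd1*. SVR is a mouse endothelial line that carries an activated H-ras oncogene and forms vascular tumors. Cells were injected under the skin of 8 to 12 week old athymic nude mice, which lack T cells, and the strain label of every sample read C57BL/6. Groups of 3 tumors were sequenced, so all comparisons share this 1 cell line and host. After 3 to 7 days of growth, mice were gavaged once a day with vehicle (10% cremaphor, 10% PEG 400 and 1% tween, the control group), trametinib at 1 mg/kg, cediranib at 3 mg/kg, or both drugs at these doses. Trametinib inhibits the kinases MEK1 and MEK2, and cediranib inhibits VEGF receptor kinases. Per the labels dosing ended when a tumor ulcerated or passed 1 cm, while the study also describes a harvest at a fixed day. Which of these the sequenced tumors came from, and so the time on drug, is not given for each tumor.

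In the Hippo pathway a kinase cascade of MST1/2 (*Stk4* and *Stk3*) and LATS1/2 phosphorylates YAP and TAZ, which keeps these coactivators in the cytoplasm or leads to their degradation. Unphosphorylated YAP and TAZ enter the nucleus and bind TEAD factors, which recognise the motif GGAATG and switch on genes such as *Ankrd1*, *Ccn1* and *Ccn2*. Angiomotins bind YAP and TAZ and hold them at junctions and actin, and in endothelium the pathway is known for its part in vessel sprouting and in responses to flow and cell shape. Transcript counts report neither phosphorylation nor the location of YAP and TAZ, and neither was measured in these samples.

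The upstream sequence of 4 genes is shown because their products or readout sit at successive steps of the pathway and their RNA levels are given below. RefSeq (GRCm38.p6) gave windows of 250 bases before to 50 bases after the start for 8 of the 10 genes, all but *Tead1* and *Tead4*. Each line gives the 250 bases before the start, 5′ to 3′ on the strand of the gene, with GGAATG or its reverse complement CATTCC in capitals. The positions were chr19:36119845-36120094 (minus strand) for *Ankrd1*, chr9:102717554-102717803 (plus strand) for *Amotl2*, chr3:57575911-57576160 (minus strand) for the first *Wwtr1* start and chr9:8004597-8004846 (minus strand) for *Yap1*.
Ankrd1: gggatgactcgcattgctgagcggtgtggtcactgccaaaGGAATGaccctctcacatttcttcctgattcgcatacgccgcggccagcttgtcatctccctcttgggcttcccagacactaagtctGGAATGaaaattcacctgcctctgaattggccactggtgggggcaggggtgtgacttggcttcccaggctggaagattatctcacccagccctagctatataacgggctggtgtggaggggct
Amotl2: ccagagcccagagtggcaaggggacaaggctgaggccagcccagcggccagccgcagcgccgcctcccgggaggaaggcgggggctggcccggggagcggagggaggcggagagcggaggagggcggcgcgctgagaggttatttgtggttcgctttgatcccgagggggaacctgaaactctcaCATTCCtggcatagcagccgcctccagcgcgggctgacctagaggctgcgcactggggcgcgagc
Wwtr1: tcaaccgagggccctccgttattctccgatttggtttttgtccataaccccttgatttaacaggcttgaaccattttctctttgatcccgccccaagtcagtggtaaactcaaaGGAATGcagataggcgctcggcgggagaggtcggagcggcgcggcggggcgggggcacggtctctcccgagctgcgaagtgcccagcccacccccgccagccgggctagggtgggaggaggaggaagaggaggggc
Yap1: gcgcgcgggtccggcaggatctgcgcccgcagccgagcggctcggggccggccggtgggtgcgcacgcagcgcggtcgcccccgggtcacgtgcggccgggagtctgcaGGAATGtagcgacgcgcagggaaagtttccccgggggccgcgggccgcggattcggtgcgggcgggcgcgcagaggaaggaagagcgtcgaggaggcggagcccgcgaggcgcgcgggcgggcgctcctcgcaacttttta
Counted from the start, the first base of GGAATG lay at -210 and -123 in *Ankrd1*, at -136 in *Wwtr1* and at -141 in *Yap1*, and *Amotl2* held it on the opposite strand at -65. Both strands were searched in all windows. GGAATG was present in a window of 6 of the 8 genes (*Yap1*, *Wwtr1*, *Tead3*, *Lats2*, *Amotl2* and *Ankrd1*), and 16.6% of the 27025 genes with a window held it, as did 14.7% of all 32851 windows. The AP-1 motif TGANTCA was found in 0 of the 8, against 8.97% of genes and 7.81% of windows. A match of letters is a description of the window only.

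The 12 libraries held 9478865 to 11666094 counts and levels are given as CPM, each gene's counts relative to the TMM-adjusted total of its library. Levels of the ERK response gene *Dusp6* were 39.0 to 47.7 CPM in control tumors and 1.98 to 4.54 CPM under trametinib, with 10.2 to 13.9 CPM under the combination and 41.4 to 43.6 CPM under cediranib, so the groups that received trametinib did not overlap those that did not. Libraries also differed in RNA of other tissues. The summed level of 8 skeletal muscle markers reached 18382 CPM in control 2 and 26989 CPM in trametinib 2, while the other 10 tumors held 8.79 to 2004 CPM. The summed level of 15 epidermis markers was 22.1 to 632 CPM in control, 4.02 to 9.99 CPM in trametinib, 45 to 2904 CPM in cediranib and 2981 to 4535 CPM in combination tumors. In every trametinib library *Krt1*, *Dsg1a*, *Dsc3*, *Perp*, *Pkp1* and *Ivl* were at 0, while trametinib means of the others ran from 0.03 CPM (*Dsp*) to 2.24 CPM (*Sfn*). Unlike the other epidermis markers, *Ivl* was lower in combination than in control tumors (means of 5.83 and 17.9 CPM). Of 9 endothelium markers, summed levels were 188 to 411 CPM in control, 45 to 106 CPM in trametinib, 111 to 308 CPM in cediranib and 31.7 to 73.9 CPM in combination tumors. *Cdh5* and *Tie1* were present in every library, and *Emcn* was at 0 in 5 of them. In bulk tumors, fewer cells of a type and less RNA per cell cannot be told apart. A gene is said to pass when its Benjamini-Hochberg adjusted p (FDR) is at most 0.05 in edgeR's quasi-likelihood test fitted across all genes and tumors. Statements that tumors did not overlap describe the values only, since the share of all genes that separate so was not counted. Standard errors (SE) and 95% intervals are on the log2 fold change scale, and since the labels do not say which tumors came from separate mice, p-values measure the spread between these samples, which may be technical.

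The members differed widely in level. Per kilobase of coding sequence, the control means were 142 CPM per kb for *Wwtr1*, 113 for *Ankrd1*, 43.8 for *Tead1*, 37.4 for *Lats1*, 23.5 for *Yap1* and 22.2 for *Amotl2*. The rest were 13.4 CPM per kb for *Tead3*, 12.5 for *Tead4*, 5.00 for *Lats2* and 4.0 for *Tead2*. The ranges over 3 control tumors overlapped for *Wwtr1* and *Ankrd1*, for *Tead1* and *Lats1*, for *Yap1* and *Amotl2*, and for *Tead3* and *Tead4*. The order depends on the length used. Per kilobase of the gene length in the count table, which includes untranslated exons, the control means were 63.9 CPM per kb for *Ankrd1*, 40.3 for *Wwtr1* and 4.22 for *Tead1*, whose listed length is 13570 bases against 1308 coding bases. The libraries were captured with exome probes, and the probe coverage of each gene was not known.

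**Figure D1:**
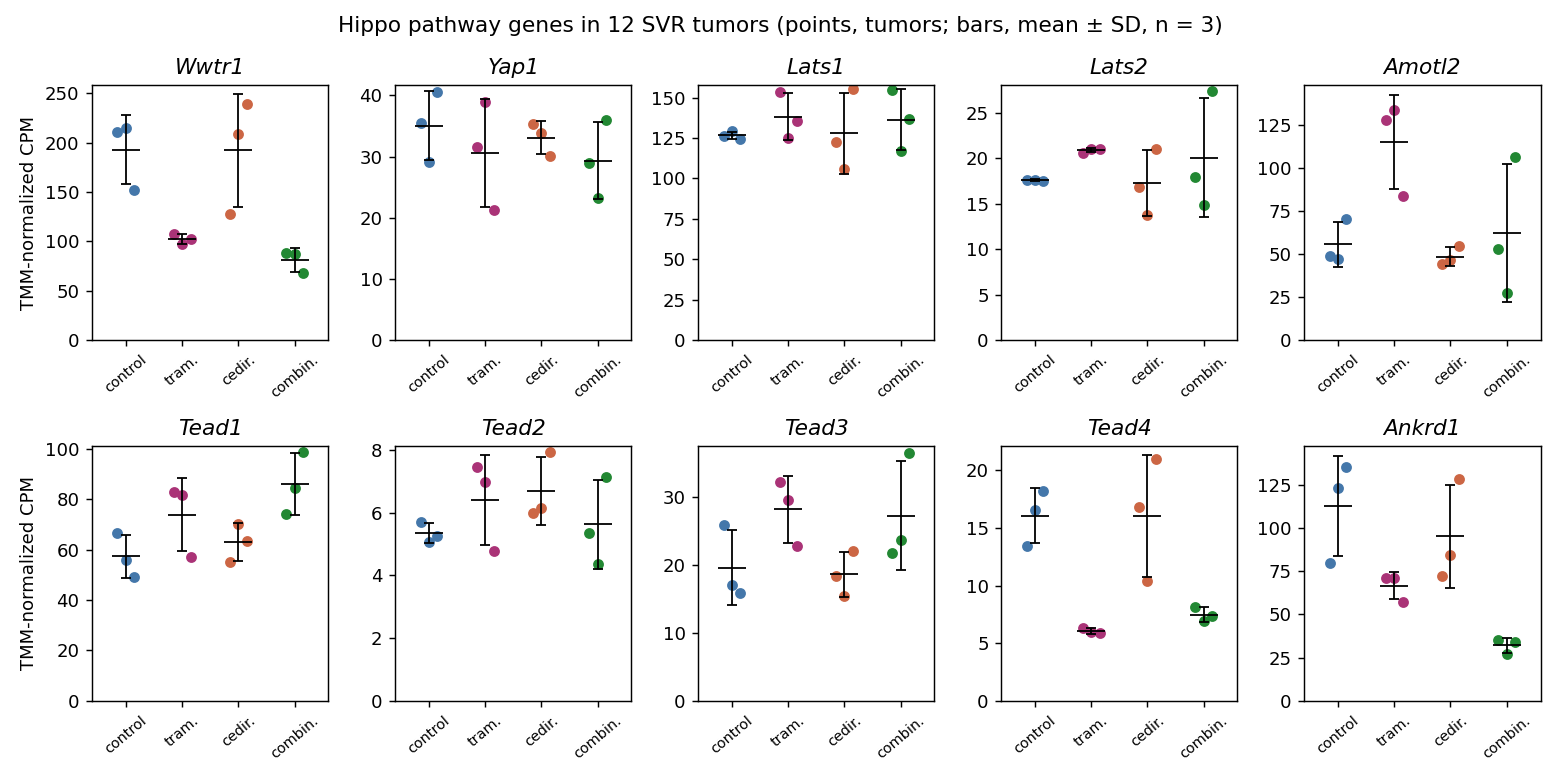
TMM-normalized CPM of the 10 Hippo pathway genes (y axis, linear, from 0) in each tumor (points) by treatment (x axis), with the mean and SD of 3 tumors as bars. *Wwtr1*, *Tead4* and *Ankrd1* lie lower in the trametinib and combination tumors than in control tumors without overlap, and *Yap1* and *Lats1* overlap throughout.

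*Wwtr1* (ENSMUSG00000027803, chr3:57455649-57575910, minus strand) encodes TAZ. Its level was 211, 215 and 152 CPM in control tumors, 107, 96.9 and 103 CPM under trametinib, 128, 209 and 239 CPM under cediranib, and 88.7, 87.4 and 67.6 CPM under the combination. All 6 tumors given trametinib were lower than all 6 tumors that were not. *Wwtr1* fell by 0.91 on the log2 scale under trametinib, a 1.88-fold lower level (SE 0.21, 95% interval -1.37 to -0.45, edgeR quasi-likelihood adjusted p = 0.0254), and by 1.25 under the combination (SE 0.21, adjusted p = 0.00620). The trametinib call ended when any of control 1, control 2 or the 3 trametinib tumors was left out (log2 fold change -1.06 to -0.83 over the 6 omissions, highest edgeR adjusted p = 0.0865). The combination call was kept in all 6 omissions. *Yap1* (ENSMUSG00000053110, chr9:7931999-8004588, minus strand), the paralogous coactivator, was 35.5, 29.2 and 40.5 CPM in control tumors, 31.5, 38.9 and 21.3 CPM under trametinib, 35.4, 33.9 and 30.0 CPM under cediranib, and 28.9, 23.2 and 35.9 CPM under the combination. The 4 groups overlapped. The *Yap1* log2 fold change was -0.20 under trametinib (95% interval -0.69 to 0.28, edgeR adjusted p = 0.684) and -0.26 under the combination (95% interval -0.74 to 0.23, edgeR adjusted p = 0.496). Per kilobase of coding sequence, *Wwtr1* made up 85.4% ± 4.38 of the summed coactivator level in control, 78.8% ± 5.44 in trametinib, 85.7% ± 5.07 in cediranib and 75.1% ± 6.80 in combination tumors (SD, n = 3). The sum of both was 166 CPM per kb in control, 95.9 in trametinib, 164 in cediranib and 79.5 in combination tumors.

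The kinases that phosphorylate YAP and TAZ did not pass in any comparison. *Lats1* (ENSMUSG00000040021, chr10:7681214-7713586, plus strand) was 126, 129 and 124 CPM in control tumors, 154, 125 and 135 CPM under trametinib, 123, 106 and 155 CPM under cediranib, and 155, 117 and 137 CPM under the combination. Its log2 fold change was 0.13 under trametinib (95% interval -0.20 to 0.45, edgeR adjusted p = 0.708) and 0.11 under the combination (95% interval -0.22 to 0.43, edgeR adjusted p = 0.696). *Lats2* (ENSMUSG00000021959, chr14:57689662-57758388, minus strand) was 17.6, 17.6 and 17.5 CPM in control tumors, 20.6, 21.1 and 21.0 CPM under trametinib, 16.9, 13.8 and 21.1 CPM under cediranib, and 18.0, 14.9 and 27.4 CPM under the combination. The 3 trametinib values of *Lats2* lay above the 3 control values, with a log2 fold change of 0.25 (95% interval -0.22 to 0.72, edgeR adjusted p = 0.586). Under the combination the *Lats2* log2 fold change was 0.19 (edgeR adjusted p = 0.613). *Lats2* overlaps *Gm49361* on the same strand, which held 3420 counts in all, and how reads there were divided is uncertain.

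*Amotl2* (ENSMUSG00000032531, chr9:102716672-102732341, plus strand) encodes an angiomotin-like scaffold and is itself a known YAP/TAZ target. It was 49.0, 46.9 and 70.4 CPM in control tumors, 127, 133 and 83.6 CPM under trametinib, 43.9, 46.6 and 54.4 CPM under cediranib, and 52.6, 27.5 and 106 CPM under the combination. The trametinib tumors were higher than all control tumors and the combination tumors spread across both. The log2 fold change under trametinib was 1.05 (SE 0.37, 95% interval 0.23 to 1.86), which did not pass (edgeR adjusted p = 0.131) but passed in DESeq2 (adjusted p = 0.0425) and without the low-count filter. Under the combination it was 0.16 (95% interval -0.65 to 0.97, edgeR adjusted p = 0.824) and, without combination 3, -0.48.

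*Tead4* (ENSMUSG00000030353, chr6:128224288-128300823, minus strand) was the TEAD gene that fell. It was 13.5, 16.5 and 18.2 CPM in control tumors, 6.35, 5.94 and 5.86 CPM under trametinib, 16.8, 10.4 and 21.0 CPM under cediranib, and 8.18, 6.90 and 7.33 CPM under the combination. All tumors given trametinib lay below all tumors that were not. *Tead4* fell by 1.40 on the log2 scale under trametinib, a 2.65-fold lower level (SE 0.24, 95% interval -1.93 to -0.88, edgeR adjusted p = 0.00498), and this call was kept in each of 6 omissions of a single tumor. Under the combination it fell by 1.10 (SE 0.24, edgeR adjusted p = 0.0147). That call ended without control 3 (edgeR adjusted p = 0.0603) and without combination 2 (edgeR adjusted p = 0.0575).

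*Tead1* (ENSMUSG00000055320, chr7:112679318-112899459, plus strand) was 66.5, 56.0 and 49.3 CPM in control tumors, 82.7, 81.8 and 57.2 CPM under trametinib, 55.2, 70.3 and 63.4 CPM under cediranib, and 74.2, 84.6 and 98.8 CPM under the combination. The combination tumors were higher than all control tumors, with a log2 fold change of 0.58 (SE 0.17, 95% interval 0.20 to 0.96) that did not pass (edgeR adjusted p = 0.0541). It passed with library totals in place of TMM (edgeR adjusted p = 0.0292), in DESeq2 (adjusted p = 0.0200) and without control 1 (edgeR adjusted p = 0.0437). Under trametinib the *Tead1* log2 fold change was 0.37 (edgeR adjusted p = 0.262). *Tead3* (ENSMUSG00000002249, chr17:28331671-28350805, minus strand) was 25.9, 17.0 and 15.9 CPM in control tumors, 32.1, 29.6 and 22.7 CPM under trametinib, 18.4, 15.4 and 22.0 CPM under cediranib, and 21.7, 23.6 and 36.4 CPM under the combination. Its values overlapped with control in every treatment, with a log2 fold change of 0.52 under trametinib (95% interval -0.02 to 1.06, edgeR adjusted p = 0.266) and 0.47 under the combination (edgeR adjusted p = 0.246). *Tead2* (ENSMUSG00000030796, chr7:45215753-45233644, plus strand), the lowest of the 4 on the coding scale in all groups but trametinib, where *Tead4* was lower (4.72 against 4.79 CPM per kb), was 5.07 to 5.71 CPM in control tumors, 4.77 to 7.44 CPM under trametinib, 5.99 to 7.94 CPM under cediranib and 4.36 to 7.15 CPM under the combination. The *Tead2* log2 fold change was 0.26 under trametinib (edgeR adjusted p = 0.628) and 0.07 under the combination (edgeR adjusted p = 0.885). *Tead2* overlaps *Cd37* on the opposite strand (934 counts in all), and whether counting used strand is not stated in the study's methods or labels.

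The make-up of the TEAD transcripts was compared as shares. Per kilobase of coding sequence *Tead4* made up 17.3% ± 4.39 of the summed TEAD level in control, 5.65% ± 0.984 in trametinib, 15.9% ± 4.66 in cediranib and 6.31% ± 1.35 in combination tumors (SD, n = 3). The *Tead4* shares of the 6 tumors given trametinib (5.00% to 7.78%) lay below those of the other 6 (10.5% to 21.3%). *Tead1* made up 59.2% ± 2.38, 66.1% ± 1.33, 61.5% ± 7.21 and 69.7% ± 2.33 in the same order. The summed TEAD level was 73.8 CPM per kb in control, 85.3 in trametinib, 78.4 in cediranib and 94.4 in combination tumors. On the length given in the count table the *Tead4* share was 31.7% in control, 11.5% in trametinib, 29.8% in cediranib and 13.5% in combination tumors, and *Tead3* rather than *Tead1* held the highest share under trametinib (43.0% against 36.5%).

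**Figure D2:**
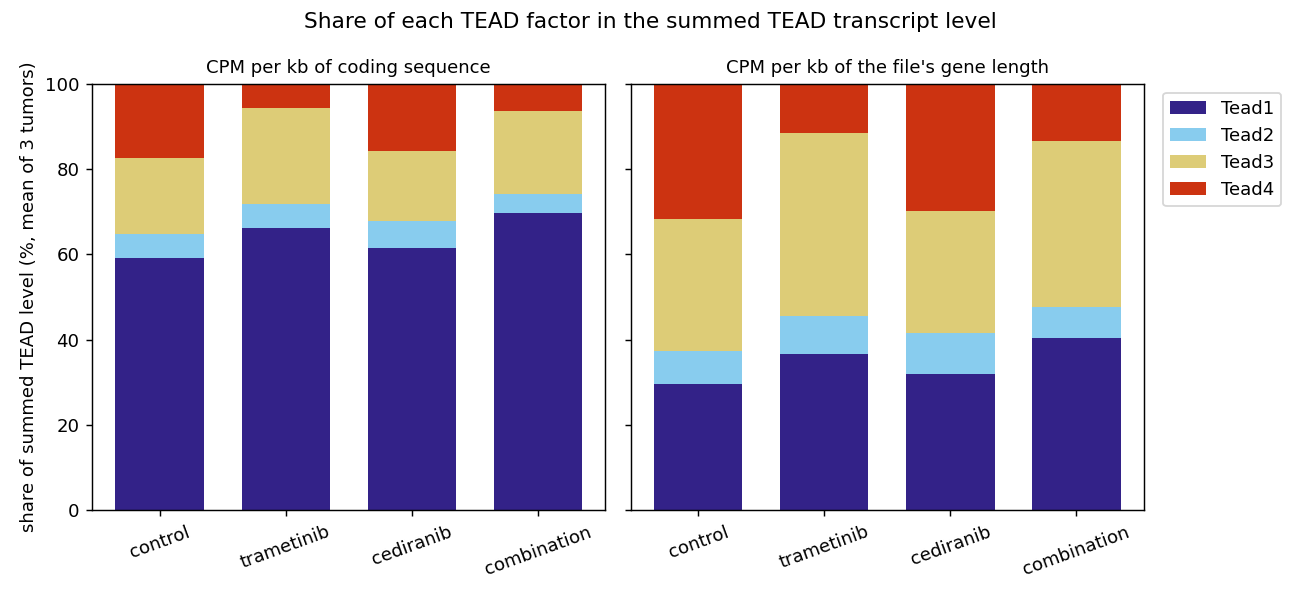
Mean share of each TEAD gene in the summed TEAD transcript level (y axis, %, 3 tumors each) by treatment (x axis), per kilobase of coding sequence (left) and of the gene length in the count table (right). The *Tead4* segment is 17.3% in control and 5.65% in trametinib tumors on the left, and 31.7% and 11.5% on the right, while the order of the other TEAD genes differs between the scales.

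*Ankrd1* (ENSMUSG00000024803, chr19:36111965-36119844, minus strand), the cardiac ankyrin repeat gene used as a readout of YAP/TAZ with TEAD, was lowest in the combination tumors. It was 79.8, 123 and 135 CPM in control tumors, 71.3, 71.0 and 57.4 CPM under trametinib, 72.4, 84.3 and 129 CPM under cediranib, and 35.0, 27.2 and 34.0 CPM under the combination. The combination tumors lay below all 9 other tumors, and the trametinib tumors lay between them and the control tumors. *Ankrd1* fell by 1.81 on the log2 scale under the combination, a 3.51-fold lower level (SE 0.24, 95% interval -2.33 to -1.29, edgeR adjusted p = 0.00155). Under trametinib alone the log2 fold change was -0.76 (SE 0.23, 95% interval -1.27 to -0.26), which did not pass (edgeR adjusted p = 0.0766) except in DESeq2 (adjusted p = 0.0222), without the low-count filter, or without control 1 (log2 fold change -0.97, edgeR adjusted p = 0.0296).

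Against control, then, 2 of the 10 genes fell under trametinib (*Tead4* and *Wwtr1*) and 0 rose. In the same comparison 3.47% of all genes tested fell and 2.64% rose. Neither gene reached a log2 fold change of 1.5 as well, which 1.43% of all genes did in the downward direction. Under the combination 3 of 10 fell (*Ankrd1*, *Wwtr1* and *Tead4*) and 0 rose, where 5.13% of all genes fell and 4.85% rose. *Ankrd1* was the member past a log2 fold change of 1.5, as were 1.71% of all genes in that direction. Because trametinib and combination tumors were compared with the same 3 control tumors, the values of the 2 comparisons are not independent. Without the 2 muscle-rich libraries (control 2 and trametinib 2) together, 0 members passed under trametinib, with *Tead4* at -1.37 (edgeR adjusted p = 0.0553) and *Wwtr1* at an edgeR adjusted p of 0.191, and 2 members passed under the combination. With an epidermal score in the model, the combination comparison gave *Ankrd1* -1.66, *Tead4* -1.45 and *Wwtr1* -1.22, of which 0 passed (edgeR adjusted p = 0.0605, 0.0870 and 0.0945). That score, the mean log2 CPM of the epidermis markers, was 4.34 to 4.89 in combination and -0.58 to 2.75 in control tumors. Since these ranges do not overlap, the fit cannot separate the score from the treatment. Endothelium markers fell alongside: 4 of the 8 tested passed lower under trametinib and 5 under the combination, and 0 passed higher. Macrophage markers passed lower in 3 of 5 under the combination, where their summed level was 159 to 292 CPM against 369 to 638 CPM in control tumors. Of 7 fibroblast markers 1 passed higher under trametinib and 1 passed lower under the combination. Their summed level was 1906 to 19911 CPM in control tumors and 6949 to 35344 CPM under trametinib. Under cediranib this sum was 1492 to 6292 CPM and under the combination 1668 to 4679 CPM. The highest sums were those of trametinib 2 and control 3. Epidermis markers passed higher in 3 of 14 tested under the combination, and 1 passed lower under trametinib. The part of these tissues in the result was not tested beyond these fits.

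**Figure D3:**
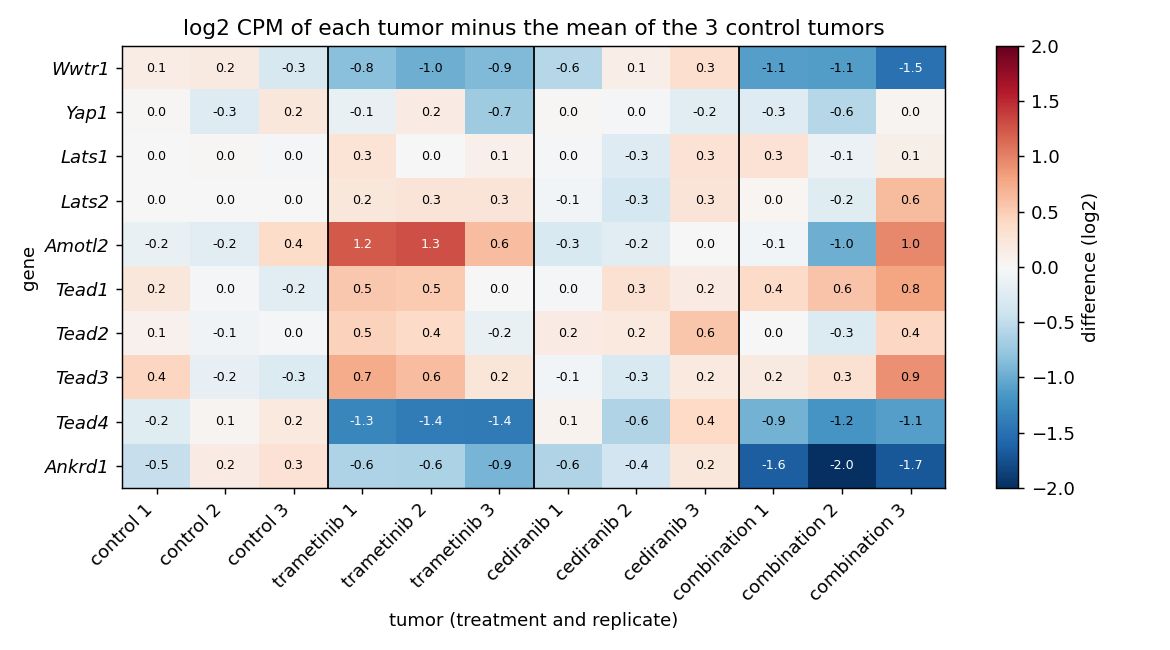
Difference of each tumor's log2 CPM from the mean of the 3 control tumors (color and printed value) for the 10 genes (rows) in the 12 tumors (columns, grouped by treatment). Blue cells of *Wwtr1*, *Tead4* and *Ankrd1* fill the trametinib and combination columns, and *Amotl2* is red in the trametinib columns and mixed under the combination. Between cediranib tumors the sign varies in every row but *Tead2*, above the control mean in each, and *Amotl2*, below it or level with it.

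Cediranib alone was compared with control to see what VEGF receptor inhibition did by itself. In edgeR 0 of the 10 genes passed, and 0% of all genes passed in either direction. Across all genes 557 had an unadjusted p under 0.05, and DESeq2 called 12 genes but 0 members. The log2 fold changes of the members ran from -0.25 for *Ankrd1* (95% interval -0.75 to 0.26) to 0.32 for *Tead2* (95% interval -0.21 to 0.86). The cediranib tumors of *Wwtr1*, *Tead4* and *Ankrd1* overlapped the control tumors, and their SDs reached 57.3 CPM for *Wwtr1* and 29.6 CPM for *Ankrd1*.

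The combination was set against each single drug to see what the second drug added. Against cediranib, 3 of 10 genes fell, namely *Ankrd1* (log2 fold change -1.57, SE 0.24, edgeR adjusted p = 0.00364), *Wwtr1* (-1.24, SE 0.21, edgeR adjusted p = 0.00659) and *Tead4* (-1.10, SE 0.24, edgeR adjusted p = 0.0176). For each of the 3, the 3 combination tumors lay below the 3 cediranib tumors. In that comparison 3.78% of all genes fell and 3.9% rose, and 1.16% fell past a log2 fold change of 1.5, as *Ankrd1* did. The *Tead4* call ended without cediranib 1 or 3 or combination 2 or 3 (highest edgeR adjusted p = 0.0660). *Tead1* was higher in all 3 combination tumors without passing (log2 fold change 0.45, edgeR adjusted p = 0.145), and *Tead3* overlapped (0.55, edgeR adjusted p = 0.210). In the same comparison 3 of 8 endothelium and 1 of 5 macrophage markers passed lower, and 1 of 7 fibroblast markers passed higher. The part of these tissues was not tested. Against trametinib, 0 of 10 genes passed in edgeR, 1 in DESeq2 and 2 without the low-count filter, while 0.248% of all genes fell and 0.721% rose, and 0.14% of all genes fell past a log2 fold change of 1.5. There were 2309 genes with an unadjusted p under 0.05. *Ankrd1* was lower in all 3 combination tumors than in all 3 trametinib tumors, with a log2 fold change of -1.05 (SE 0.24, 95% interval -1.57 to -0.54, edgeR adjusted p = 0.0607), and passed in DESeq2 (adjusted p = 0.00201). *Wwtr1* did not overlap either (-0.33, 95% interval -0.79 to 0.13, edgeR adjusted p = 0.440). In the other direction, *Tead4* was higher in all 3 combination tumors (6.90 to 8.18 CPM) than in all 3 trametinib tumors (5.86 to 6.35 CPM), without passing. *Amotl2* was -0.89 with overlapping tumors (95% interval -1.70 to -0.07, edgeR adjusted p = 0.242), and *Tead1* was 0.22 (edgeR adjusted p = 0.548). Epidermis markers stood apart in this comparison, with 4 of 14 tested higher in combination tumors, and 1 of 5 macrophage markers passed lower. With the epidermal score in the model, *Ankrd1* was -0.84 against trametinib (SE 0.46, edgeR adjusted p = 0.900). The score was 4.34 to 4.89 in combination and -1.69 to -1.23 in trametinib tumors, so this fit cannot separate it from the treatment.

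**Figure D4:**
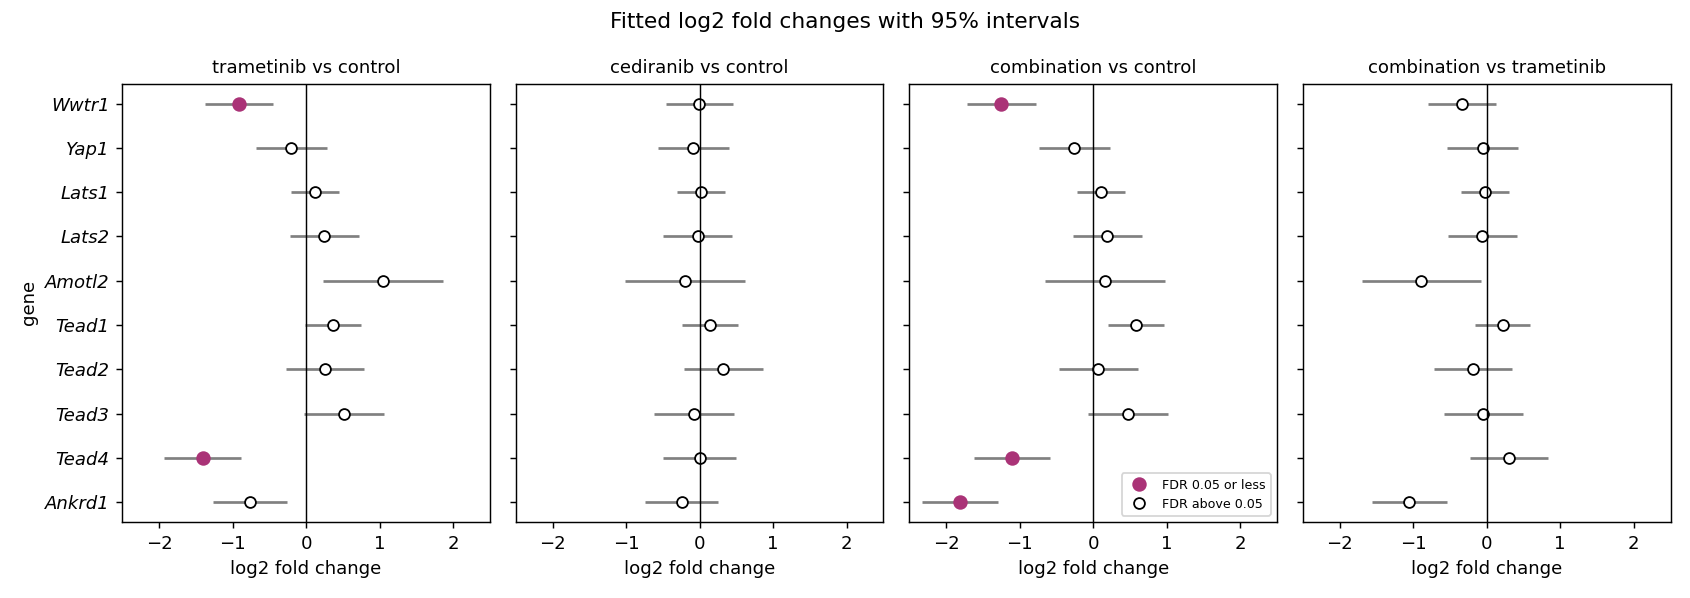
Fitted log2 fold changes (x axis) of the 10 genes (y axis) with 95% intervals from edgeR's quasi-likelihood fit, in 4 comparisons. Filled points passed at an FDR of 0.05, namely *Wwtr1* and *Tead4* under trametinib, those 2 with *Ankrd1* under the combination, and none under cediranib or between the combination and trametinib.

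Whether the effect of trametinib depended on cediranib was tested as an interaction. In edgeR 0 of 10 members passed and 0% of all genes passed in either direction, with 909 genes at an unadjusted p under 0.05 and 38 genes but 0 members called by DESeq2. The interaction was -0.81 for *Ankrd1* (SE 0.33, 95% interval -1.52 to -0.09, unadjusted p = 0.0299 and edgeR adjusted p = 0.682). It was -0.69 for *Amotl2* (95% interval -1.84 to 0.46) and -0.51 for *Tead2* (95% interval -1.26 to 0.24). The lower *Ankrd1* of combination tumors was thus not shown to exceed the sum of the single-drug estimates.

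Upstream and beside the coactivators, 36 of 39 further Hippo pathway genes had enough counts (*Dchs2*, *Vgll1* and *Vgll2* did not). Under trametinib 3 fell and 1 rose, and under the combination 3 fell and 0 rose, with list medians of -0.08 and -0.04 on the log2 scale against about 0 over all genes. Of all genes tested, 3.47% fell and 2.64% rose under trametinib, and 5.13% fell and 4.85% rose under the combination. *Mob1b*, the MOB adaptor that activates LATS kinases, was 33.1, 44.2 and 37.4 CPM in control tumors, 18.3, 19.6 and 19.6 CPM under trametinib, 37.4, 33.2 and 40.2 CPM under cediranib, and 15, 12.2 and 17.4 CPM under the combination. The tumors given trametinib lay below all others. *Mob1b* fell by 1.00 under trametinib (SE 0.16, edgeR adjusted p = 0.00376) and by 1.36 under the combination (SE 0.16, edgeR adjusted p = 0.000893), and passed in both comparisons under every alternative fit. *Mink1*, a kinase of the MAP4K-related group that can feed into LATS, fell by 0.77 and 0.63 (edgeR adjusted p = 0.0107 and 0.0240). *Csnk1e*, a casein kinase that takes part in marking YAP and TAZ for degradation, fell by 0.48 and 0.59 (edgeR adjusted p = 0.0249 and 0.00881). The combination call of *Mink1* and the trametinib call of *Csnk1e* each ended in 4 of the 6 omissions of a single tumor. *Amot*, the founding angiomotin, rose by 1.08 under trametinib (SE 0.26, edgeR adjusted p = 0.0281), from 9.88, 5.37 and 6.57 CPM in control to 13.5, 19.7 and 13.3 CPM in trametinib tumors. Its combination tumors, at 6.56, 7.26 and 9.28 CPM, overlapped the control tumors (log2 fold change 0.08, edgeR adjusted p = 0.878). The *Amot* call ended without control 2, control 3 or trametinib 2, and at 0.70 without both muscle-rich libraries (edgeR adjusted p = 0.244). *Nf2*, *Stk3*, *Stk4* and *Vgll4* did not pass. The log2 fold changes under trametinib and the combination were 0.01 and 0.04 for *Nf2* (merlin), 0.33 and 0.22 for *Stk3* (MST2), -0.18 and -0.04 for *Stk4* (MST1), and -0.59 and -0.68 for *Vgll4*, which competes with YAP for TEAD factors.

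Downstream, 17 of 19 further YAP/TAZ target genes were tested (*F3* and *Foxf2* had too few counts). Under trametinib 1 fell and 1 rose, with a median of -0.04, and under the combination 4 fell and 1 rose, with a median of -0.45. The shares over all genes tested were 3.47% lower and 2.64% higher under trametinib, and 5.13% lower and 4.85% higher under the combination. *Igfbp3*, an IGF-binding protein gene, was 18.1, 33.0 and 41.5 CPM in control tumors, 13.7, 15 and 11.3 CPM under trametinib, 8.39, 18.6 and 11.1 CPM under cediranib, and 4.85, 2.72 and 3.06 CPM under the combination. The combination tumors were below all others. *Igfbp3* fell by 3.12 on the log2 scale under the combination (SE 0.38, edgeR adjusted p = 0.000931), which held under every alternative fit, and by 1.91 against trametinib (edgeR adjusted p = 0.0402). Under trametinib alone it was -1.21 (edgeR adjusted p = 0.0592), and it passed there in 5 of 13 alternatives, namely with library totals, without the low-count filter, with the epidermal score, in DESeq2 and without control 1. *Ccn2* (CTGF, named *Ctgf* in the count table) was 18.9, 21.5 and 72.2 CPM in control tumors, 23.3, 38.5 and 7.20 CPM under trametinib, 6.49, 36.3 and 10.6 CPM under cediranib, and 2.73, 1.27 and 6.50 CPM under the combination. It fell by 3.42 under the combination (SE 0.87, edgeR adjusted p = 0.0296), and that call ended without control 3, the highest tumor (-2.53, edgeR adjusted p = 0.117), and without combination 1 or 2. *Ccn1* (CYR61, named *Cyr61* there) was 290.4, 210.4 and 470.5 CPM in control tumors and 330, 311 and 201 CPM under trametinib. It was 101, 332 and 265 CPM under cediranib and 98.1, 56.9 and 152 CPM under the combination, so these last groups overlapped. Against control *Ccn1* fell by 1.66 under the combination (SE 0.45, edgeR adjusted p = 0.0394), and without control 3 was -1.30 (edgeR adjusted p = 0.147), the call ending in 4 of the 6 omissions. The kinase gene *Nuak2* fell by 0.89 (edgeR adjusted p = 0.0457) and the RhoGEF gene *Arhgef17* rose by 0.60 (edgeR adjusted p = 0.0479) under the combination. Under trametinib *Asap1* rose by 0.60 (edgeR adjusted p = 0.0294) and *Myof* fell by 0.57 (edgeR adjusted p = 0.0337). Each of these 4 calls ended in at least 4 of the 6 omissions of a single tumor. With the epidermal score in the model, 1 target gene fell and 0 rose under the combination, and without the 2 muscle-rich libraries 2 fell and 0 rose. Under cediranib 0 of 17 targets and 0 of 36 pathway genes passed in edgeR.

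**Figure D5:**
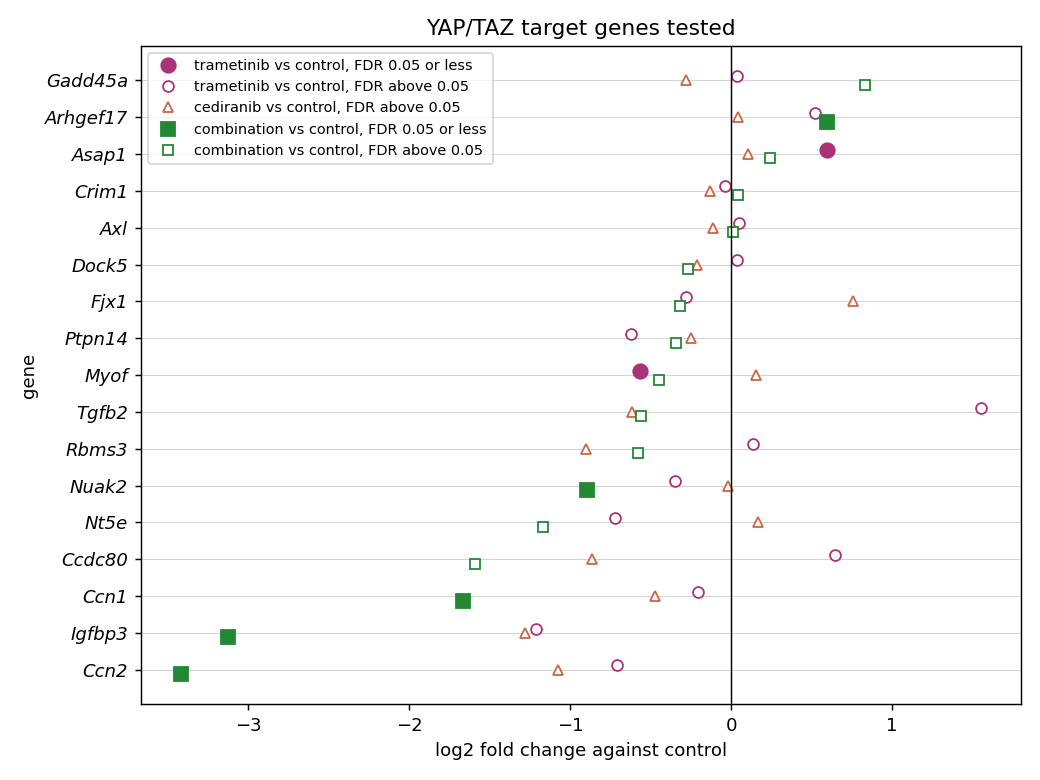
Log2 fold changes against control (x axis) of the 17 YAP/TAZ target genes tested (y axis) under trametinib (circles), cediranib (triangles) and the combination (squares), with filled symbols for an FDR of 0.05 or less. *Ccn2*, *Igfbp3*, *Ccn1* and *Nuak2* are filled squares left of 0, *Arhgef17* is a filled square right of 0, and the open symbols lie on both sides.

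The genes whose log2 CPM followed *Tead4* most closely over the 12 tumors were *Map2k3* (Pearson r = 0.971), *Gm12316* (r = 0.970) and *Wnt7b* (r = 0.964). Those most like *Wwtr1* were *Hnrnpu* (r = 0.956), *Rasa1* (r = 0.953) and *Frmd4b* (r = 0.950). These values describe the same 12 tumors and carry the differences between treatments within them.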

How the data were processed

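RNA from flash frozen tumors was sequenced with exome-capture libraries. The authors called bases with bcl2fastq 1.8.4, aligned reads to GRCm38 with STAR 2.7.1a in 2-pass mode and assigned them to genes by featureCounts 1.6.0. The deposited table held whole read counts per gene, not normalized. For annotation release, strand and multi-mapped reads, settings were not given in the sources used here. Each of the 12 columns matched 1 tumor by its name, with 0 columns left over, and no 2 libraries held identical values.

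Genes were filtered with filterByExpr (minimum count 10, minimum total 15), scaled by TMM and tested in 1 edgeR 4.0.16 quasi-likelihood fit over all tumors (R 4.3.3), with Benjamini-Hochberg adjustment over all 12897 genes and no covariates. The tested genes held 99.8% of counts. A count of 3, the limit a count of 0 allows, was 0.251 to 0.349 CPM, for counting error only. Group SDs are over 3 tumors. Log2 CPM used a prior count of 2. The script was tested on simulated data.

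Named genes were all members, list genes passing against control under trametinib or the combination (at most 8 a list), 6 fixed pathway and target genes, *Dusp6*, and the 3 genes most correlated with each of the 2 members of smallest p in trametinib against control. Members and lists were chosen with earlier results of these data known. Alternatives were DESeq2 1.42.0, other scalings, no filter, a replicate block, an epidermal score, single-tumor omissions and, chosen after seeing the data, omission of both muscle-rich libraries. Coordinates are those of GRCm38, with RefSeq windows from GRCm38.p6.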

Additional observations from a re-analysis of the deposited data

How the results depend on the processing

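Leaving out each tumor in turn gave 1 to 2 members and 458 to 623 genes passing under trametinib, 0 members and 0 to 7 genes under cediranib, 2 to 4 members and 517 to 1330 genes under the combination, 0 members and 0 to 22 genes for the combination against trametinib, 2 to 3 members and 443 to 618 genes against cediranib, and 0 members and 0 to 1 genes for the interaction. The full fit gave 789, 0, 1287, 125, 991 and 0 genes in the same order. Without the low-count filter the counts were 4 members and 1690 genes under trametinib, 489 genes under cediranib, 2390 under the combination, 2 members and 1411 genes against trametinib, 1722 against cediranib and 373 for the interaction. DESeq2 gave 4 members and 1265 genes, 12, 1841 (4 members), 697 (1 member), 1507 and 38. Score and treatment could not be separated for the combination against control or against trametinib. The epidermal score gave 0 members and 118 genes under the combination, 3 genes against trametinib and 622 against cediranib. It also turned the sign of the combination estimates of *Tead2* (-0.093), *Tead3* (-0.0060), *Lats1* (-0.095) and *Lats2* (-0.045). Omitting both muscle-rich libraries, an alternative chosen after seeing the data, gave 0 members and 311 genes under trametinib, 2 members and 569 genes under the combination and 7 genes against trametinib. In each case the cause was not tested. Omitting single tumors took *Tead2* from -0.15 to 0.23, *Lats2* from -0.10 to 0.37 and *Amotl2* from -0.48 to 0.52 under the combination. The replicate block left 2 and 3 members passing against control and 81 genes for the combination against trametinib. It ended the calls of *Myof* under trametinib and of *Ccn1*, *Arhgef17* and *Nuak2* under the combination. Same-numbered tumors did not pair (r -0.22 to 0.36, 3 of 18 pairs over 0.1, and 4 of 12 tumors closest to their own number). Library totals in place of TMM gave a median log2 fold change over all genes of 0.13 under the combination and 0.12 against either drug, where TMM gave medians of 0.00, -0.01 and 0.00, and moved the share of passing genes that were higher from 48.6% to 66.2%, from 74.4% to 84.9% and from 50.8% to 67.7%. Of 26 member estimates not given singly, 20 changed sign under some setting and 0 passed under any.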
